A study of Homo sapiens with 18 samples.

Results

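Distal intergenic RNA polymerase II (Pol II) sites are places where Pol II was found on chromatin far from any annotated gene. They were taken from chromatin immunoprecipitation followed by sequencing (ChIP-seq) of HCT116 cells, a human colon cancer cell line. A site is a Pol II peak of Control replicate 1 that shares at least 1 bp with a peak of Control replicate 2, overlaps no peak of either input library, lies on chromosomes 1 to 22 or X, and has its summit over 10 kb from every RefSeq GRCh38 gene of any biotype. This rule gave 1093 sites, which are 5.38% of the 20323 Pol II peaks shared by both Control libraries without input overlap. The sites were thus chosen by their peaks in the Pol II Control lists, so a peak or a fold in those lists is a description and not a result.

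All 18 libraries came from HCT116 cells in which INTS11, the catalytic subunit of Integrator, carries an auxin-inducible degron (INTS11-AID). IAA is auxin and triggers loss of the tagged protein, so the Control cells carry the tag too. Numbered libraries are Pol II, Tyr1P and Ser2P with IAA and as Control, 2 replicates of each, with 2 input libraries of chromatin without immunoprecipitation. A further 4 Pol II libraries without a replicate number are labelled IAA+EGF, EGF, IAA and Control, where EGF is epidermal growth factor. Pol II IAA lists are the numbered ones wherever the unnumbered libraries are not named. The libraries labelled IAA and EGF are called by their titles here, but their deposited file names give the other treatment, so which of both agents each received cannot be settled. A single protocol text covers every sample. It lists 14 h without serum, IAA at 500 µM (1 h), EGF at 100 ng/µl (30 min) and interferon beta at 2000 U (1 h), and does not say which library received what. Whether numbered replicates came from separate cultures is not given in the sources used here, so p-values measure the spread between these libraries, which may be technical.

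Pol II also binds at enhancers, where it makes short and unstable transcripts known as enhancer RNAs. The repeated tail of its largest subunit is phosphorylated as it transcribes: the Tyr1P antibody recognises tyrosine 1 of the repeat, a mark described near mammalian promoters and enhancers, and the Ser2P antibody recognises serine 2, a mark of elongating Pol II. Integrator cleaves nascent RNA and ends transcription early at many genes and at enhancers.

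The sites themselves have no sequence here, since no genome was used. Promoters are shown instead for the genes beside the largest clusters of sites, because these genes also carried Pol II peaks of their own. They are the 3 largest clusters (ties ordered by summed fold) with a protein-coding gene within 50 kb whose promoter is in the RefSeq table of GRCh38.p14. Each runs 250 bases before to 50 after the gene start, and capitals mark CCAAT on either strand, a motif chosen after the sequences were seen.
PTMA, chr2:231708275-231708574, plus strand: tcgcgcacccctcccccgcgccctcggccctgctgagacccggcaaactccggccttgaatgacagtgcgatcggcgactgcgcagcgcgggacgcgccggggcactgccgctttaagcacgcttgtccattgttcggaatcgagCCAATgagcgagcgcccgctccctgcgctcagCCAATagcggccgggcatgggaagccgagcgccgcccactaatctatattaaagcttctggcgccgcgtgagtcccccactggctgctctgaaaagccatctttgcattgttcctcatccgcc
HAPSTR1, chr16:9091394-9091693, plus strand: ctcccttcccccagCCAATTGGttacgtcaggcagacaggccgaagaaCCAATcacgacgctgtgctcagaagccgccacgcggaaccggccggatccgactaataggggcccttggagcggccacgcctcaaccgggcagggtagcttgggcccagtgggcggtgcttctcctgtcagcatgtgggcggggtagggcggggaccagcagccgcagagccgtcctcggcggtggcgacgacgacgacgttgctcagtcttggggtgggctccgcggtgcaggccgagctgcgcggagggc
IER5, chr1:181088450-181088749, plus strand: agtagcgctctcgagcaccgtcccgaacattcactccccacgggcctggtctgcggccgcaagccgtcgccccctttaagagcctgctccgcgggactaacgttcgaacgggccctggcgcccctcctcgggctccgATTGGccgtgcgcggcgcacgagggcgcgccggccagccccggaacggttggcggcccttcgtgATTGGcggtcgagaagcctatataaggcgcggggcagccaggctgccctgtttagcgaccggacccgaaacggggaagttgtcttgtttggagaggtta
The PTMA promoter held CCAAT 2 times, the HAPSTR1 promoter 3 times (one pair overlapping) and the IER5 promoter 2 times. Of 34961 RefSeq promoters of the same length, 34.6% held CCAAT on either strand. TATAAA was searched on both strands in the same way, is held by 11.5% of these promoters and was in none of the 3. Only this exact sequence was searched, and not variants such as the tatataag in the IER5 promoter, so nothing is read from its absence. A peak lay on the HAPSTR1 and IER5 promoters in 16 of 16 immunoprecipitated libraries, and on the PTMA promoter in 14 of 16, the exceptions being Pol II IAA replicate 1 and Ser2P Control replicate 2.

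The depth of each list was estimated from its deposited fold and p, as fragments per kb of genome. The shallowest list was Pol II Control replicate 1 at 2.95, followed by Ser2P Control replicate 2 at 3.30, and the deepest was Ser2P Control replicate 1 at 13.6. The lists held 15377 peaks in Ser2P Control replicate 2 to 99275 in Ser2P IAA replicate 1. A missing peak therefore means that none was called at that depth. A weaker signal per cell and fewer cells with Pol II at the site cannot be told apart. As a check of the cell type, 9 of 10 colon epithelial markers had a Pol II peak at a gene end in both Control libraries. So had 0 of 10 fibroblast markers, 2 of 15 blood cell markers and 5 of 15 neuron markers, beside 57.2% of all protein-coding genes. Of 30 intestinal and Wnt identity genes, 16 (53.3%) had such a peak, so that list does not stand above all genes.

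The sites were weak to moderate Pol II peaks. The deposited fold over local background, the authors' own value for each peak within its list, had a median of 6.29 in the sites (2.59 to 27.0). Gene edge peaks, the 11515 shared Control peaks with a summit within 1 kb of a protein-coding gene's end, had a median of 9.65. About 13 fragments were stacked at the median site summit, against 33 at the median gene edge summit. The sites were also narrower, with a median of 319 bp against 515 bp. Their summits lay a median of 19800 bp from any gene (10007 bp to 2879 kb) and 35526 bp from a protein-coding gene. Only 28 sites lay over 100 kb from a gene and 5 over 1 Mb.

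Members just over the distance limit were ordinary by fold. The nearest was at 10007 bp from the long non-coding RNA gene LOC105373689 with a fold of 7.87, followed by 1 at 10020 bp from MTCO1P58 with 4.23 and 1 at 10030 bp from FUNDC2P1 with 5.99. The peaks just inside were at 9997 bp from HIF1AN with a fold of 6.27, at 9991 bp from LOC105369533 with 7.27 and at 9979 bp from LINC00887 with 6.24.

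Tyr1P was present at nearly every site in Control cells, and at fewer with IAA. Peaks were found at 884 sites (80.9%) and 870 sites (79.6%) in the IAA libraries, against 1077 (98.5%) and 1067 (97.6%) in the Control libraries. Both IAA libraries were below both Control libraries. The mean was 80.2% ± 0.906 with IAA and 98.1% ± 0.647 in Control (SD, n = 2 each), a difference of -17.8 percentage points with an exact permutation p of 0.333, two-sided, the smallest that 2 against 2 libraries allow. The same IAA minus Control difference was -3.08 points for gene edge peaks, -12.1 points for the 4183 gene interior peaks, whose summits lie further inside a gene, and -15.5 points for the 3532 other peaks within 10 kb of a gene (83.8% with IAA, 99.3% in Control). The Tyr1P lists were shorter with IAA: with the lists of each antibody cut to equal length, which also leaves only 546 sites, the difference at the sites was -9.52 points (exact p = 0.333).

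Per site, 808 had a Tyr1P peak in both IAA lists, 138 in 1 and 147 in neither, against 1061, 22 and 10 in the Control lists. Loss, meaning both Control lists and neither IAA list, was seen at 126 sites (11.5%), where 5.03% of all shared Pol II peaks were so called. Gain, the reverse, was seen at 2 sites, beside 0.0246% of all shared peaks. Gain was possible only at the 10 sites with no Tyr1P in either Control list, so loss and gain are not weighed against each other. The share with a Tyr1P peak with IAA followed the strength of Pol II. In the quartile of sites with the lowest Pol II fold it was 64.6% and 59.9% with IAA, against 97.8% and 95.6% in Control. In the highest quartile it was 93.4% and 96.3% with IAA.

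**Figure D1:**
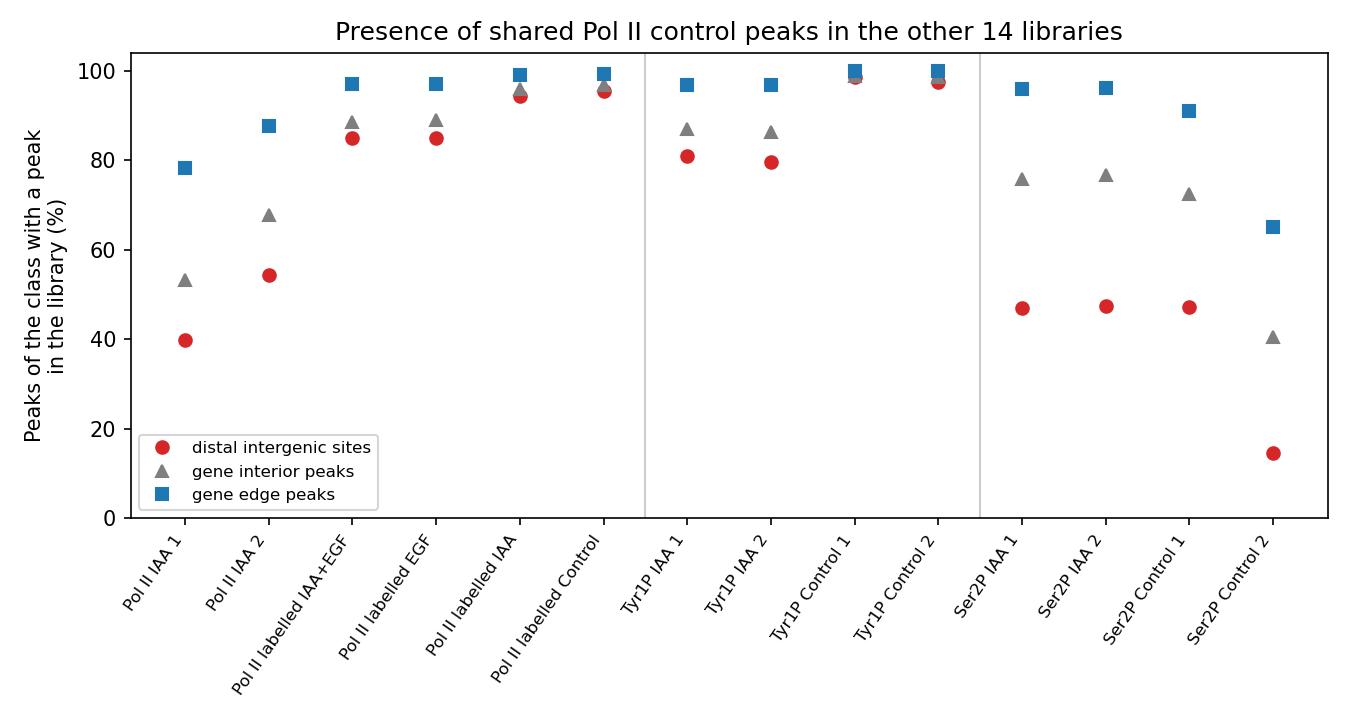
Percentage of shared Pol II Control peaks with a peak in each of the 14 libraries the rule did not use, for distal intergenic sites (circles), gene interior peaks (triangles) and gene edge peaks (squares); each point is 1 library. The sites lie below the gene edge peaks in every library, by differences of -50.6 to -1.36 percentage points.

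Ser2P was found at a smaller share of the sites than of the gene edge peaks. Peaks were at 514 sites (47.0%) and 517 sites (47.3%) in the IAA libraries, against 515 (47.1%) and 158 (14.5%) in the Control libraries. Gene edge peaks had 95.9% and 96.1% with IAA, against 91.0% and 65.1% in Control. Gene interior peaks were between, with 75.9% and 76.6% with IAA, against 72.5% and 40.4% in Control. The other peaks within 10 kb of a gene were nearer to the sites, with 65.1% and 66.2% with IAA, against 62.4% and 32.1% in Control. Over all 4 Ser2P libraries the sites were lower than the gene edge peaks with differences of -50.6 to -43.9 percentage points and a mean of -48.0 (exact sign-flip permutation p = 0.125, two-sided, the smallest for 4 libraries). Within quartiles of the sites' Pol II fold, the mean was -41.0. The top quartile ran from 7.90 to 27.0 and held 272 sites and 7713 gene edge peaks, so fold was not closely matched there. Local background had a median of 1.10 fragments at the sites and 2.53 at gene edge peaks, so like folds can differ in fragments.

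For the effect of IAA on Ser2P at the sites, the mean was 47.2% ± 0.194 with IAA and 30.8% ± 23.1 in Control (SD, n = 2 each), a difference of 16.4 points with an exact permutation p of 0.667. The low value came from Control replicate 2, the shallow library. Without it the difference was 0.0457 points, without Control replicate 1 it was 32.7, and with the lists of each antibody cut to equal length, at the 546 sites that this leaves, it was -6.41. Its direction is not settled. Of the sites, 134 (12.3%) had Ser2P in both IAA lists and neither Control list, beside 8.79% of all shared peaks, and 20 (1.83%) had it in both Control lists and neither IAA list, beside 0.999%. No Ser2P peak was called in any list at 374 sites, and 133 had one in all 4.

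Most sites carried Tyr1P, with or without Ser2P. In Control, 546 sites had Tyr1P in both lists and Ser2P in neither, 153 had both marks in both lists, and 1 had Ser2P in both but not Tyr1P in both. Where a peak was present, the Tyr1P Control summits lay a median of 43 and 40 bp from the Pol II summit. The Ser2P Control summits lay 57 and 72.5 bp away, and those of Pol II Control replicate 2 lay 46 bp away. At gene edge peaks the medians were 23 and 23 bp for Tyr1P Control and 39 and 62 bp for Ser2P Control. Only peaks overlapping a site are counted, which itself limits these distances.

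Tyr1P peaks were also fewer at the sites than at gene edge peaks. Over the 4 Tyr1P libraries the difference was -9.22 points on average (-17.2 to -1.36; exact sign-flip permutation p = 0.125). With lists of equal length and the 546 sites left by them it was -4.03 (p = 0.25, same exact test).

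**Figure D2:**
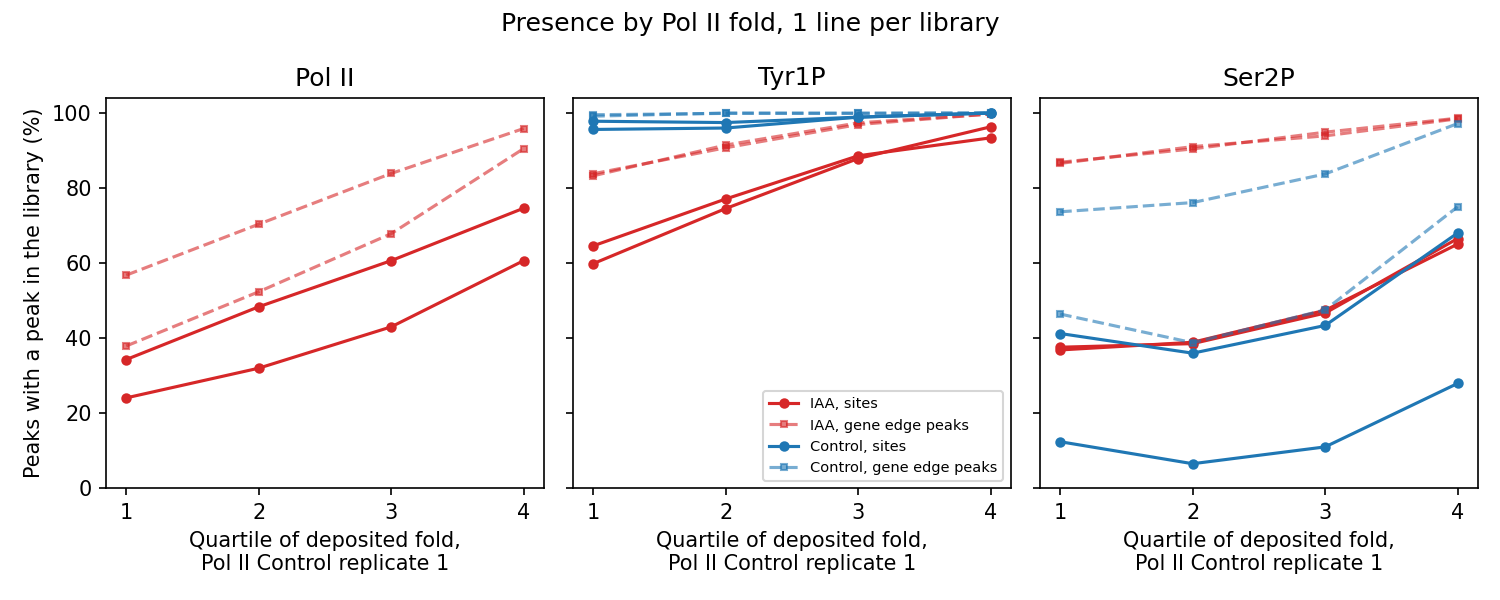
Percentage of peaks with a peak in each numbered library other than the Pol II Control libraries, by quartile of the sites' deposited Pol II fold in Control replicate 1, for sites (solid lines, circles) and gene edge peaks (dashed lines, squares), IAA in red and Control in blue, 1 line per library. Presence is higher in the top quartile than in the lowest in every IAA library shown. The sites lie below the gene edge peaks in every quartile and library shown, except for both Tyr1P Control libraries in the top quartile. There both classes are at 100%.

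With IAA, Pol II peaks were called at 436 sites (39.9%) in replicate 1 and 595 (54.4%) in replicate 2, a mean of 47.2% ± 10.3 (SD, n = 2). Gene edge peaks were kept at 78.3% and 87.7%, and gene interior peaks at 53.3% and 67.8%. The other peaks within 10 kb of a gene were kept at 46.5% and 59.5%. Both IAA lists held 382 sites, 1 held 267 and neither held 444 (40.6%), beside 20.5% of all shared Control peaks, and nothing is read from that count, since the rule used the Control lists. Over the 6 Pol II libraries that the rule did not use, the share at the sites minus that at gene edge peaks was -17.4 points on average (-38.5 to -3.80), with an exact sign-flip permutation p of 0.03125, the smallest for 6 libraries. These libraries carry different labels and are not replicates of the same condition, so the p says only that all 6 differences share a sign. Within the same quartiles of fold, which do not match fold closely in the top one, the mean difference was -11.3 points.

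Tyr1P with IAA went with the Pol II peak with IAA. Of the 444 sites in neither Pol II IAA list, 205 (46.2%) had Tyr1P in both IAA lists and 133 (30.0%) in neither. Of the 382 sites in both Pol II IAA lists, 371 (97.1%) had Tyr1P in both and 4 (1.05%) in neither. Ser2P separated them less: 178 of the 444 (40.1%) and 180 of the 382 (47.1%) had Ser2P in both IAA lists. These are counts over sites of the same libraries and are given without a test.

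**Figure D3:**
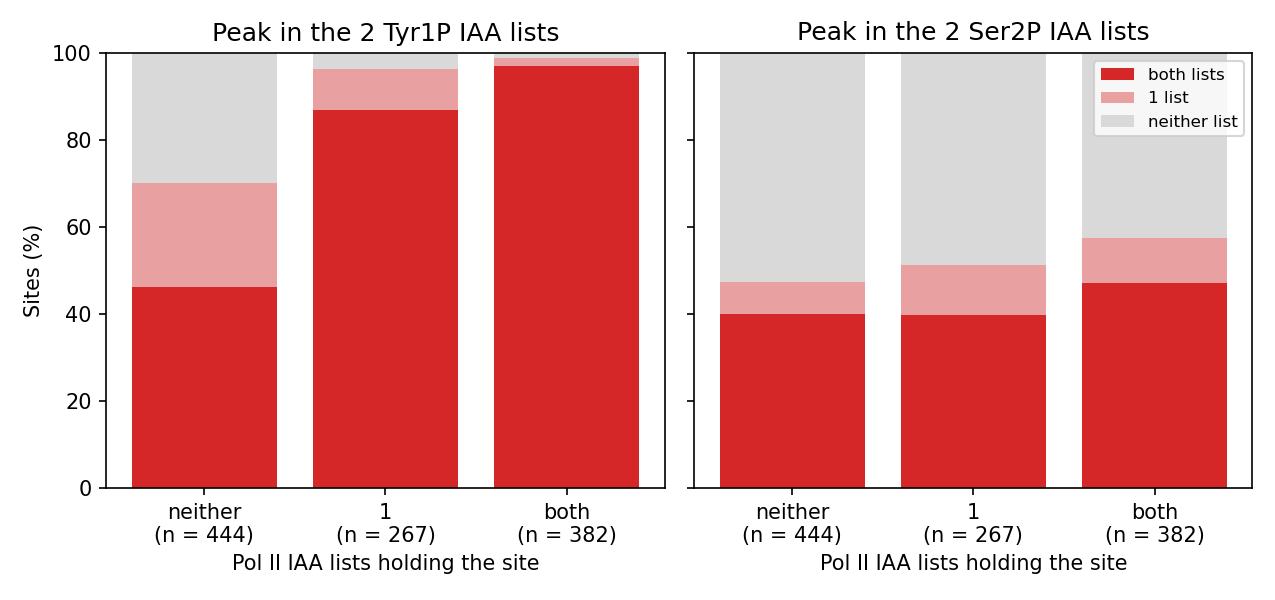
Percentage of sites with a peak in both, 1 or neither of the 2 Tyr1P IAA lists (left) and the 2 Ser2P IAA lists (right), for sites held by neither (444), 1 (267) or both (382) Pol II IAA lists. Tyr1P in both lists is at 46.2%, 86.9% and 97.1% of them, and Ser2P at 40.1%, 39.7% and 47.1%.

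The distal share of each library's own peaks, counted over all its peaks and not only these sites, moved by under 2 points. For Pol II it was 5.26% and 6.57% with IAA, against 6.25% and 7.49% in Control, a difference of -0.953 (exact permutation p = 0.667), and 0.706 with lists of equal length. For Tyr1P it was 8.40% and 7.75% with IAA, against 9.81% and 9.01% in Control, a difference of -1.34 (exact p = 0.333). For Ser2P it was 4.16% and 4.10% with IAA, against 3.24% and 1.66% in Control, a difference of 1.68 (exact p = 0.333). The Ser2P difference was 0.0525 (exact p = 0.667) with lists of equal length and 0.0888 (exact p = 1) for peaks over 50 kb from genes. The Ser2P lists held 99275 and 88783 peaks with IAA, against 37304 and 15377 in Control. Of 651 Pol II peaks shared by both IAA libraries and over 10 kb from genes, 174 (26.7%) were in neither Control list, beside 9.33% of all shared IAA peaks. These peaks were chosen by the IAA lists, and Pol II Control replicate 1 was the shallowest list. Their absence from Control is therefore not read as a gain with IAA.

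The unnumbered Pol II libraries held most of the sites. A peak was called at 928 sites (84.9%) in the library labelled IAA+EGF, 930 (85.1%) in that labelled EGF, 1032 (94.4%) in that labelled IAA and 1045 (95.6%) in that labelled Control, with 1 library per label and no replicate check. All 4 held 860 sites and none held 22. Between the library labelled EGF and that labelled Control, 125 sites (11.4%) were present in Control only, beside 5.47% of all shared peaks, and 10 in EGF only, beside 0.482%. Between the library labelled IAA and that labelled Control, 34 were in Control only, beside 1.32%, and 21 in IAA only, beside 0.6%. The sites were chosen by numbered Pol II Control lists, so an excess in Control only is not read as a result. The unnumbered lists also differ in length, with 29308 peaks for IAA+EGF, 27968 for EGF, 33560 for IAA and 35840 for Control.

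The libraries labelled IAA+EGF and EGF held similar numbers of sites, but not all the same ones. Only the EGF list held 56 sites (5.12%), beside 2.65% of all shared peaks, and only the IAA+EGF list held 54 (4.94%), beside 2.42%. Between the library labelled IAA+EGF and that labelled IAA, 118 sites were only in the IAA list, beside 5.23%, and 14 only in the IAA+EGF list, beside 0.738%. The pattern absent for EGF and IAA+EGF but present for IAA and Control was found at 59 sites. The pattern absent for IAA and IAA+EGF but present for EGF and Control was found at 7. Neither pattern was counted over all shared peaks, and the lists labelled EGF and IAA+EGF were the shorter ones, so nothing is read from these counts. Of the 444 sites in neither numbered Pol II IAA list, 336 were in the list labelled IAA+EGF, 340 in that labelled EGF, 413 in that labelled IAA and 417 in that labelled Control. Which agent separates these lists cannot be told apart, because titles and file names of the libraries labelled IAA and EGF differ.

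The strongest site, by deposited fold in Control replicate 1, was a peak of 606 bp at chr5:181027892-181028497, 12145 bp upstream of BTNL9, a butyrophilin-like gene. It had a fold of 27.0, about 168 fragments at the summit, and a peak in all 14 other libraries. Next came sites 26092 bp upstream of CDCA7L with a fold of 21.2 and 10264 bp from TRIM35 with 20.1. The others of the top 10 were nearest KRT18P9, LOC105373587, GNA12, KLHL5P1, DYNC1H1, RNA5SP443 and DNAJC6, with folds of 17.8 to 19.5. All 10 had Pol II and Tyr1P peaks in every IAA and Control library. The site 29982 bp upstream of GNA12, which encodes a G protein subunit, at chr7:2874009-2874541, had no Ser2P peak in any list, and the TRIM35 site lacked it only in Ser2P Control replicate 2.

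Among sites in neither Pol II IAA list, the highest folds were 14.8 near LINC01101, 14.5 upstream of KIF1A, 13.9 upstream of PRR14, 13.0 upstream of FBN3 and 12.4 downstream of ZBTB7C. KIF1A encodes a kinesin motor. The FBN3 site, at chr19:8161067-8161429, had Tyr1P and Ser2P in both Control lists and in neither IAA list, whereas the other 4 kept Tyr1P and Ser2P in both IAA lists.

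Only 6 sites had no Tyr1P peak in any list. Those nearest PPP3CA, LINC01943, ZNF804B and IGKV1OR1-1 had folds of 4.95 to 5.60 and about 7 to 11 fragments at the summit, and 3 of the 6 were in no other list at all. Sites with Ser2P in both IAA lists and neither Control list were led by those nearest LOC105371394 (fold 11.8), LOC107985345 (11.5), CYB5R3 (11.2), LOC124904447 (11.1) and BCHE (11.0). All 5 had Tyr1P in all 4 lists. CYB5R3 encodes a cytochrome b5 reductase.

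Among the strongest sites in none of the 4 unnumbered lists were those nearest IQUB, LINC02783, NGRNP1 and LECT2, with folds of 6.29 to 8.34 and about 9 to 12 fragments. Of the 15 sites held only by the unnumbered library labelled Control, the strongest lay nearest RN7SKP143, CYRIB, PAX2, LOC124902066 and LINC01765, with folds of 5.62 to 7.38.

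Some sites lay close to one another. With clusters defined as summits within 20 kb of the next, 270 sites (24.7%; exact binomial 95% interval 22.2 to 27.4, counting error only) lay in 118 clusters, of which 95 held 2 sites, 15 held 3, 7 held 4 and 1 held 7. The closest summits lay 317 bp apart, near the median site width of 319 bp, so adjacent peaks of the same region can count as a cluster. The share in clusters was not computed for other shared peaks. Clustered sites had a lower Pol II fold (median 5.64) than single ones (6.40). Fold is over local background, and fragments at the summit were not compared between these groups, so a lower fold need not mean less Pol II. Clustered sites had Ser2P more often: 55.6% and 56.7% with IAA and 65.9% and 22.6% in Control. Single sites had 44.2% and 44.2% with IAA and 40.9% and 11.8% in Control. The Ser2P share was higher in all 4 libraries, by 14.9 points on average (lowest library 10.8; exact sign-flip permutation p = 0.125, the smallest possible) and by 17.8 within quartiles of fold. The comparison of clustered with single sites was chosen after seeing the data. For Tyr1P the difference was -4.29 points (p = 0.5) and for Pol II in the other libraries -3.34 (p = 0.344), by the same exact test.

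The largest cluster held 7 sites over 24809 bp, 21080 to 45889 bp upstream of PTMA, which encodes the nuclear protein prothymosin alpha. Their folds ran from 3.13 to 8.63. All 7 had Tyr1P in both Control lists. With IAA only the outermost and innermost sites kept Pol II in both lists, and the same 2 kept Tyr1P in both, while the 5 sites between had neither. Ser2P was found with IAA in both lists at 5 of the 7. The PTMA promoter printed above lies beyond the innermost site.

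The next cluster held 4 sites 12550 to 38490 bp upstream of HAPSTR1, a stress response gene. All 4 had Tyr1P in both IAA lists and both Control lists, and each had Pol II in at least 1 IAA list. The third held 4 sites about 102 kb from the nearest protein-coding gene, PIP4K2A for the first of them, with folds of 5.12 to 5.76. Another cluster, of 4 sites 12362 to 42279 bp downstream of IER5, an immediate early response gene, had folds of 4.44 to 6.97. None of the IER5 sites was in both Pol II IAA lists, and 2 of 4 had Tyr1P in both.

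**Figure D4:**
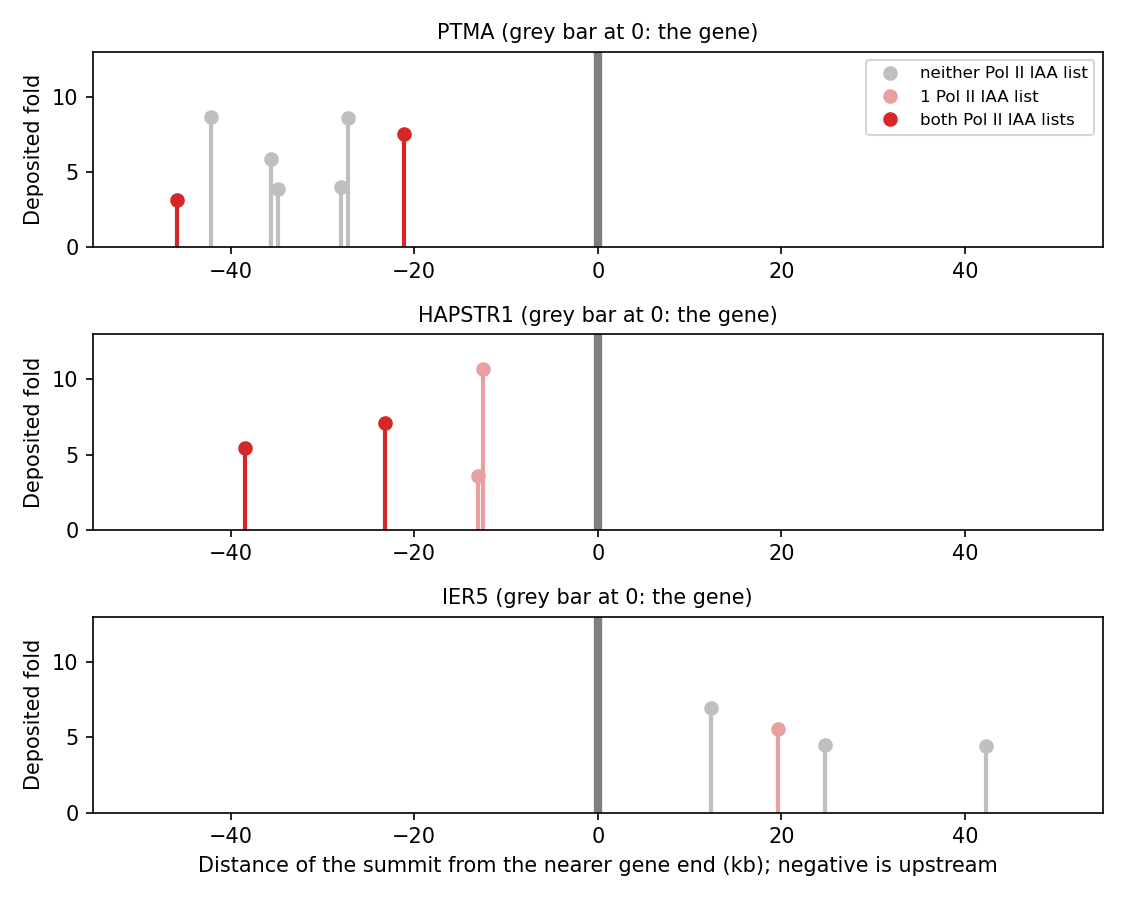
Deposited Pol II fold in Control replicate 1 of the clustered sites beside PTMA, HAPSTR1 and IER5, by distance of the summit from the nearer gene end in kb, negative being upstream; colour gives whether neither, 1 or both Pol II IAA lists held the site. The 5 inner sites of the PTMA group are in neither list, and 2 HAPSTR1 sites are in both.

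The sites were spread over many genes. Their nearest protein-coding genes were 860 different genes, of which 697 had a single site. Of the 860, 63.5% had a Pol II peak at a gene end in both Control libraries, beside 57.2% of all 19974 protein-coding genes. The genes nearest to the most sites were PTMA (7), LOC124900275 (7), MATN1 (6), DDIT4 (6) and CYB5B (5). DDIT4, a stress-induced inhibitor of mTORC1 signalling, had its 6 sites at 13207 to 25617 bp, 3 of them in each numbered Pol II IAA list, 6 in the unnumbered list labelled IAA and 5 in that labelled IAA+EGF. None of the 7 LOC124900275 sites was in a numbered Pol II IAA list, whereas 7 were in the unnumbered list labelled IAA and 5 in that labelled IAA+EGF.

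Of 40 immediate early genes, which respond quickly to growth factors, 12 (30%) were the nearest protein-coding gene of a site, with 21 sites in all, beside 4.31% of all protein-coding genes. They were DUSP4, DUSP5, DUSP6, FOS, IER5, KLF10, MYC, PHLDA1, SGK1, TRIB1, ZFP36L1 and ZFP36L2. The list was chosen with results of these data known, and the length of the gene-free stretch beside each gene was not compared. FOS, a subunit of AP-1, had 1 site 48221 bp upstream with Tyr1P in all 4 lists, Pol II in all 4 unnumbered lists but in neither numbered IAA list, and Ser2P in no list. ZFP36L1, an mRNA decay factor, had 2 sites, both with Pol II and Ser2P in both IAA lists.

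Among 30 intestinal and Wnt identity genes, 4 were nearest to a site, among them ELF3, GATA6 and SOX9. SOX9, a transcription factor of intestinal progenitors, had 4 sites at 25331 to 696799 bp, all with Tyr1P in all 4 lists. Of 20 AP-1 and ETS factor genes 2 were nearest to a site (ELF3 and FOS), and of 20 keratin and adhesion genes 3 (CLDN3, KRT18 and KRT80). None of 15 Integrator subunit genes and none of 24 ribosomal protein genes was, although all of both lists had a Pol II peak at a gene end in both Control libraries. Among cell type markers, 3 of 10 colon epithelial, 1 of 15 neuron (MAP2), 0 of 15 blood cell and 0 of 10 fibroblast genes were nearest to a site.

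The sites farthest from genes had a peak less often in several libraries. In Ser2P Control replicate 1 a peak was called at 50.3% of the 555 sites 10 to 20 kb from a gene, 46.4% of the 414 at 20 to 50 kb, 38.5% of the 96 at 50 to 100 kb and 7 of the 28 beyond. In Tyr1P Control replicate 2 the shares were 98.4%, 97.8%, 97.9% and 22 of the 28. In the unnumbered Pol II library labelled IAA they were 95.7%, 95.2%, 89.6% and 21 of the 28, and in that labelled Control 97.3%, 94.9%, 94.8% and 21 of the 28. In Pol II IAA replicate 1 they were 38.7%, 41.8%, 38.5% and 39.3%, with no such fall. These are counts over sites within 1 library and are a description. No comparison of sites upstream with sites downstream of their nearest gene is reported: a strand was found for 656 of the 860 genes (76.3%), too few, so that check is void.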

How the data were processed

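The 16 immunoprecipitated and 2 input libraries each have 1 deposited peak list. MACS2 2.2.7.1, deepTools 3.5.1, Picard 2.25.7, Bowtie2 2.3.4.1, Trim Galore 0.6.6 and the build hg38 are named by the submitters' processing notes, without a role. Options and any pooling were not given in the sources used here. Each deposited list gives a score, a fold enrichment, −log10 p and −log10 q and the summit per peak. Fold and p were solved for fragments at the summit and local background (relative tolerance 0.0002). Depth is the lowest background over the shortest peak. Genes came from RefSeq GRCh38.p14. Overlap means at least 1 bp. Library shares were compared by exact permutation with Python 3.11.15, NumPy 2.4.6, pandas 2.3.3 and SciPy 1.17.1, and the scripts were tested on simulated data. The library, not the site, is the replicate. Sign-flip tests took IAA and Control libraries together, which are not replicates of the same condition. Same-numbered libraries did not deviate together in peak presence (correlation of deviations 0.0190 for Tyr1P, -0.0147 for Ser2P). For Tyr1P this could hardly show pairing, because the Control lists held 99.5% and 99.4% of all shared peaks. Pol II was not checked, so whether replicate numbers pair the libraries is not settled. Sites were named by rules of rank: highest fold overall and within each state, largest clusters, genes with most sites, and list genes nearest to a site. The sites, gene lists and rules were chosen with earlier results of these data known. Some sites and genes that these rules select are not reported here.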

Additional observations from a re-analysis of the deposited data

Results flagged for a closer look

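The effect of IAA on the distal share of a library's own peaks differed between antibodies: it was 1.68 percentage points for Ser2P and -1.34 for Tyr1P, a difference of 3.02. Both Ser2P IAA libraries were above both Ser2P Control libraries, and both Tyr1P IAA libraries were below both Tyr1P Control libraries. The exact permutation p of the difference, with labels permuted within each antibody, was 0.0556, the smallest that design allows. With lists of equal length the Ser2P value was 0.0525 (exact p = 0.667), where its IAA and Control libraries no longer separated, and the Tyr1P value -0.963. For peaks over 50 kb from genes they were 0.0888 (exact p = 1) and -0.167 (exact p = 0.667).

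The input lists, which enter the sites only as a filter, held 206 of the 1299 shared Pol II peaks over 10 kb from genes (15.9%), beside 264 of all 20587 shared Pol II peaks (1.28%). Of the removed candidates, 69 lay over 1 Mb from every gene.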

How the results depend on the processing

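Over 180 recomputed values of 15 results, 3 changed direction; comparisons of 2 against 2 or of 4 libraries cannot pass a threshold of 0.05, so their keeping a side of it shows no stability. The number of sites was 1726 at over 5 kb, 124 at over 50 kb, 3226 with protein-coding genes only and 546 with lists of equal length; a single Control list gave 1405 to 2035. Reversed values were the IAA minus Control difference of the Ser2P share with lists of equal length (-6.41) and of the distal Pol II share at over 50 kb (0.0166) and with lists of equal length (0.706). With lists of equal length, which also changes the sites, the Tyr1P difference was -9.52 and that of the distal Ser2P share 0.0525; this share's difference was 0.0888 at over 50 kb. The share of sites in clusters was 18.4% at −log10 q of at least 5, 17.7% at over 50 kb, 35.1% with protein-coding genes only, 30.7% with input peaks kept, 15.6% with lists of equal length, 12.7% with 5 kb clusters and 33.3% with 50 kb clusters. The unnumbered library labelled Control held 90.3% at over 50 kb, 96.8% with protein-coding genes only and 88.8% with equal lists; that labelled IAA held 86.3% at over 50 kb, 92.4% with input peaks kept and 87.9% with equal lists. That labelled EGF held 88.2% at −log10 q of at least 5, 79.0% at over 50 kb, 88.3% with protein-coding genes only, 82.7% with input peaks kept and 82.4% with equal lists; that labelled IAA+EGF held 79.0%, 87.6% and 78.4% at over 50 kb, with protein-coding genes only and with equal lists. The cause of these changes was not tested.

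Leaving out 1 library moved the difference between sites and gene edge peaks to between -20.1 and -13.2 points for Pol II, where 5 libraries cannot reach an exact p below 0.0625, to between -49.4 and -47.2 for Ser2P and to between -11.8 and -6.55 for Tyr1P. The IAA minus Control difference ran from -18.5 to -17.2 for the Tyr1P share and from 0.0457 to 32.7 for the Ser2P share. The distal share differences ran from -1.61 to -0.294 for Pol II, -1.73 to -0.939 for Tyr1P and 0.887 to 2.47 for Ser2P, and the Pol II share with IAA from 39.9% to 54.4%. With the replicate block, the Tyr1P difference was -17.8 and the Ser2P difference 16.4, with exact p of 0.5 and 1, and the block changed no call. Without the sites over 1 Mb from genes, an alternative chosen after seeing the data, 1088 sites gave a Tyr1P difference of -17.9. Depth limits the absence of a peak most in Pol II Control replicate 1 and Ser2P Control replicate 2.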
